A study of Mus musculus with 16 samples.

Results

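The hepatocyte carries bile acids in from portal blood, out into bile and, when needed, back into blood, and 10 genes for these transporters were followed among the 12618 genes of the deposited table. They were chosen by name, with earlier results of these data known, and all 10 were found and passed the filter on low values. Uptake is represented by Slc10a1, Slco1a1, Slco1a4 and Slco1b2, export into the bile canaliculus by Abcb11, Abcb4, Abcc2 and Atp8b1, and export back across the basolateral membrane by Abcc3 and Abcc4. The livers came from mice on a Western diet, a diet rich in fat and sugar, given for 8 weeks to every animal. Of these, 8 livers were labelled CYP7A1 for genotype, or Cyp7a1 CRISPR, and 8 were labelled Ctrl, or control CRISPR. Cyp7a1 is the enzyme that sets the pace of bile acid synthesis by the classical pathway, and CRISPR names the method used to edit it. The labels give no guide sequence, delivery route, edited cell type, strain, sex or age. Whether every library is from its own animal is not stated either, and p-values then refer to the spread among the libraries, which may be technical in part.

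Of the 10 transporters, Abcc4 and Slco1a4 were higher and Abcc3 was lower in Cyp7a1-labelled livers than in control livers, and the other 7 did not pass the test. Abcc4 was 1.54-fold higher (95% interval 1.30 to 1.81) and Slco1a4 1.61-fold higher (1.24 to 2.09), while Abcc3 stood at 0.847 of its control level (0.769 to 0.933). The Abcc4 ranges of the groups did not overlap, which in either direction was true of 1.04% of all genes. The 4 canalicular transporters had log2 fold changes between -0.10 and 0.04. Over all genes tested, 6.12% were called at a limma adjusted p under 0.05, 3.07% higher and 3.05% lower. Since the transporters were chosen with earlier results known, their number called beside this share is a description. On recovered reads, edgeR and DESeq2 called the same 3 transporters in the same directions, where they called 6.02% and 8.88% of all genes.

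In the enterohepatic circulation, bile acids made in hepatocytes are pumped across the canalicular membrane against a steep gradient, reabsorbed in the ileum and taken up again from portal blood. Slc10a1 (NTCP) takes up conjugated bile acids with sodium, and the Slco (OATP) carriers take up bile acids and many other organic anions without it. Abcb11 (BSEP) is the main canalicular bile salt pump, Abcb4 (MDR2) flips phosphatidylcholine into bile, Abcc2 (MRP2) exports conjugates such as bilirubin glucuronide, and Atp8b1 (FIC1) keeps the canalicular membrane asymmetric by moving phospholipids inward. Abcc3 (MRP3) and Abcc4 (MRP4) return bile acids and conjugates to blood, a route known to rise in cholestasis.

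Promoters are shown for the pair of transporters that were higher, Abcc4 and Slco1a4, for Slco1a1, which lies near Slco1a4 on chromosome 6, and for Abcb11, whose level followed that of other members from liver to liver. Each runs 5′ to 3′ over 300 bases that end 50 bases past a RefSeq transcription start (GRCm38.p6, the assembly also called mm10), and capitals mark matches to the motifs searched. The Abcc4 sequence is chr14:118706170-118706469, that of Slco1a4 is chr6:141856171-141856470, that of Slco1a1 is chr6:141946913-141947212 and that of Abcb11 is chr2:69342567-69342866, all on the minus strand.
Abcc4: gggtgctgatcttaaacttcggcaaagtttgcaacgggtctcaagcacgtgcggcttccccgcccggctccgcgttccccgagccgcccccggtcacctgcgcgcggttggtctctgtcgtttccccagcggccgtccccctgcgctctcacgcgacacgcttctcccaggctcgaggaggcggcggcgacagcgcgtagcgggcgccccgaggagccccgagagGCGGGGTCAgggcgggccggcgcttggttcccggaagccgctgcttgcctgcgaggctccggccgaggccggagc
Slco1a4: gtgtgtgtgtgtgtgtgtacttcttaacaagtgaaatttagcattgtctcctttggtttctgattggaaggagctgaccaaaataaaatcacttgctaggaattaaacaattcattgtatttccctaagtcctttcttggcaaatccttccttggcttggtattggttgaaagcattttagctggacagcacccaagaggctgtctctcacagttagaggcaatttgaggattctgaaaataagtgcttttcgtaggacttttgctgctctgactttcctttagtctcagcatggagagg
Slco1a1: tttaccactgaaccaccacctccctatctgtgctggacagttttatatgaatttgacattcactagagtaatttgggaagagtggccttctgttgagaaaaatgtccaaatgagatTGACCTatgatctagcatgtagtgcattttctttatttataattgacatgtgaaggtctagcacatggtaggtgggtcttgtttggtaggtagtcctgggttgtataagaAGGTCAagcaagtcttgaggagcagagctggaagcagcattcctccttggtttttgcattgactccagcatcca
Abcb11: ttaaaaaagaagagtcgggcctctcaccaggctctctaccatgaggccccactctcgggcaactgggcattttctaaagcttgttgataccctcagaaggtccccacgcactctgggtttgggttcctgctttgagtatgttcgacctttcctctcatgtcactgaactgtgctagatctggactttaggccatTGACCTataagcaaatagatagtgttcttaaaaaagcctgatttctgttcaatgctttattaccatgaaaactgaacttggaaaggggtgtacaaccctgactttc

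Both strands were searched for AGGTCA, the core hexamer of nuclear receptor sites, for an inverted repeat of that core around 1 base, for TGACNNNGC, the antioxidant response element, and for the palindromic HNF1 element. The core is part of the inverted repeat, and its reverse complement can share letters with TGACNNNGC. The RefSeq table held promoters for 8 of the 10 genes, 10 promoters in all. AGGTCA occurred in 5 of these 10, from Slc10a1, Slco1a1, Slco1b2, Abcb11 and Abcc2, where 16.3% of the 32851 mouse promoters of this length hold it. In Slco1a1 the matches start at positions -134 and -24 from the transcription start, and in Abcb11 the match starts at -56. TGACNNNGC occurred in 3 of these 10, those of Abcc2 and both of Abcc4, against 12.4% of all promoters, and the match in the printed Abcc4 sequence starts at -25. Neither AGGTCA nor TGACNNNGC was found in the Slco1a4 window, and neither the inverted repeat nor the HNF1 element was found in the window of any member. These longer motifs, searched as exact letters, are each held by only 3 of the 32851 promoters (0.00913%). Their absence from 10 windows was therefore likely beforehand and tells nothing about these genes. A match describes the letters and is not evidence of binding.

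Depth was 19.6 to 27.4 M recovered reads (M, mega) in Cyp7a1-labelled livers and 13.8 to 25.4 M in control livers, with Control 38 the shallowest. The targeted transcript was not lower in the livers labelled Cyp7a1. Cyp7a1 had 4702 ± 1126 normalized counts in Cyp7a1-labelled livers and 3587 ± 1252 in control livers (SD, n = 8 each), a log2 fold change of 0.43 with a limma adjusted p of 0.227 and an exact permutation p of 0.0716, two-sided. An edit can leave transcript levels in place, so this value checks the label only in part. Of 12 hepatocyte markers, 11 were in the table and none was called in either direction, where 6.12% of all genes were called. Their summed level was 1781700 to 2525970 normalized counts in Cyp7a1-labelled livers and 1744620 to 2535790 in control livers. Most of this sum was Alb, which averaged 1549950 in Cyp7a1-labelled livers and 1380720 in control livers. Likeness of the groups does not check the tissue label. In whole liver, fewer cells of a type and less RNA per cell cannot be told apart.

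**Figure D1:**
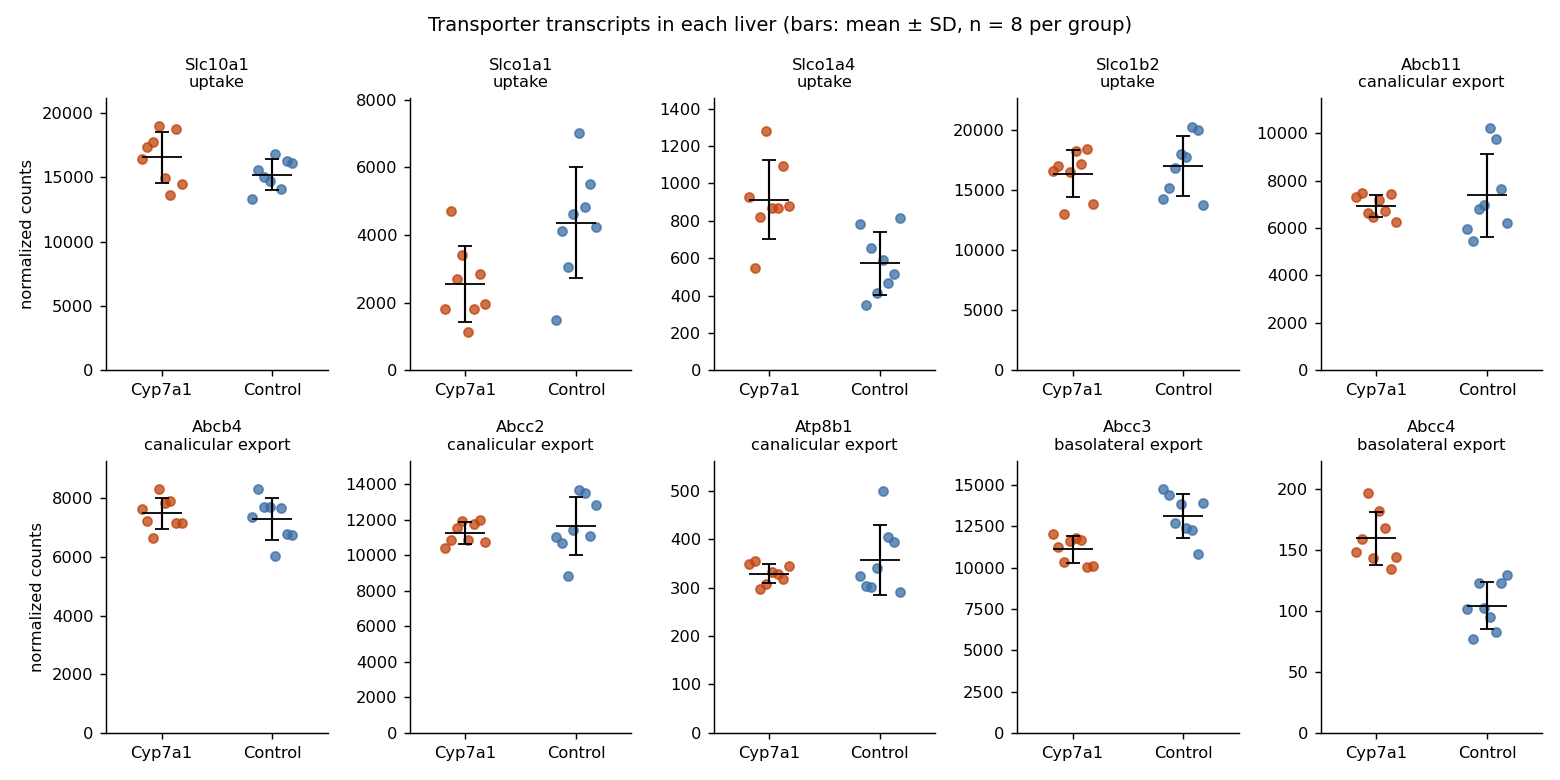
Normalized counts (y axes, linear from 0) of the 10 transporters in 8 Cyp7a1-labelled livers (orange) and 8 control livers (blue), 1 point per liver, with mean and SD. Abcc4 is separated between the groups, at 134 to 197 in Cyp7a1-labelled livers and 77.1 to 129 in control livers, and the Abcb11, Abcc2 and Atp8b1 points are spread over a narrower range in Cyp7a1-labelled livers than in control livers.

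Among the uptake carriers, 1 of 4 was called higher and none lower, where 3.07% of all genes were called higher and 3.05% lower. The 4 log2 fold changes ran from -0.78 to 0.69. Slco1a4 (OATP1A4; chr6:141805440-141856199, minus strand), a carrier of bile acids and of cardiac glycosides, had a lowest, median and highest value of 548, 876 and 1279 normalized counts in Cyp7a1-labelled livers, against 348, 551 and 814 in control livers. In 7 of 8 Cyp7a1-labelled livers it lay above the highest control, and the exception, Cyp7a1 5, lay near the control median. The log2 fold change was 0.69 ± 0.18 (SE; limma adjusted p = 0.0290; exact permutation p = 0.00451). The call was lost without any of Cyp7a1 19, Cyp7a1 28, Control 12, Control 16 and Control 25, with adjusted p-values up to 0.0617 and a log2 fold change that stayed between 0.59 and 0.79 over all single libraries left out.

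Slco1a1 (OATP1A1; chr6:141907282-141946962, minus strand), a carrier of bile acids and steroid conjugates, had 1135, 2335 and 4711 normalized counts at its lowest, median and highest in Cyp7a1-labelled livers, against 1496, 4436 and 7031 in control livers. In 7 of 8 Cyp7a1-labelled livers it lay below the control mean, but the groups overlapped broadly, with Control 7 as low as the lower Cyp7a1-labelled livers and Cyp7a1 5 above the control median. Its log2 fold change of -0.78 ± 0.29 did not pass the test (SE; limma adjusted p = 0.128; exact permutation p = 0.0331, not adjusted for the number of genes). Control 7 decided this call, since without it the log2 fold change was -0.98 and the limma adjusted p 0.0229. Slco1a1 was also the most variable of the 10, with a within-group SD on the log2 scale of 0.66, larger than that of 97.4% of all genes.

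The pair of carriers that handle most hepatic bile acid uptake in mice differed little. Slc10a1 (chr12:80953183-80968705, minus strand) had 13641, 16884 and 18953 normalized counts at its lowest, median and highest in Cyp7a1-labelled livers, against 13301, 15268 and 16769 in control livers. In 4 of 8 Cyp7a1-labelled livers it exceeded every control, while the others lay within the control range. The log2 fold change was 0.11 with a 95% interval of -0.04 to 0.27 (limma adjusted p = 0.421; exact permutation p = 0.144). Slco1b2 (OATP1B2) averaged 16346 ± 1949 in Cyp7a1-labelled livers and 16987 ± 2463 in control livers (SD, n = 8 each), with a log2 fold change of -0.05 and an interval of -0.25 to 0.15 (limma adjusted p = 0.823).

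The canalicular exporters were called in neither direction, at 0 of 4. With 6.12% of all genes called in either direction, 0 of 4 is no result about this group. Abcb11 (chr2:69238282-69342616, minus strand) had 6254, 6946 and 7487 normalized counts at its lowest, median and highest in Cyp7a1-labelled livers, against 5446, 6886 and 10207 in control livers. The medians lay close together and the Cyp7a1-labelled range fell inside the control range. The log2 fold change was -0.06 with an interval of -0.29 to 0.18 (limma adjusted p = 0.836; exact permutation p = 0.636), and its sign turned to 0.01 without Control 20 and to 0.0051 without Control 25. In its exons, 136 bases overlap the antisense gene Gm13613 and 19 bases the pseudogene Gm13614.

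Abcb4, the phosphatidylcholine floppase, averaged 7487 ± 534 normalized counts in Cyp7a1-labelled livers and 7293 ± 722 in control livers (SD, n = 8 each). Its log2 fold change of 0.04 had an interval of -0.09 to 0.18 (limma adjusted p = 0.783), an upper bound below the lower bounds of Abcc4 (0.38) and Slco1a4 (0.32). Abcc2 averaged 11245 ± 607 in Cyp7a1-labelled livers and 11627 ± 1630 in control livers, with a log2 fold change of -0.04 and an interval of -0.20 to 0.12 (limma adjusted p = 0.849). Atp8b1, on chromosome 18, averaged 328 ± 20.1 in Cyp7a1-labelled livers and 357 ± 71.6 in control livers, with a log2 fold change of -0.10 and an interval of -0.30 to 0.10 (limma adjusted p = 0.616). Its 8 Cyp7a1-labelled values all lay below the control mean, yet the medians were nearly equal, 329 in Cyp7a1-labelled livers and 332 in control livers.

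What set the groups apart among the canalicular exporters was the spread from liver to liver. The coefficient of variation of Abcb11 was 6.80% in Cyp7a1-labelled livers and 23.7% in control livers. That of Atp8b1 was 6.12% in Cyp7a1-labelled livers and 20.0% in control livers, and that of Abcc2 was 5.40% in Cyp7a1-labelled livers and 14.0% in control livers. For all 3 the Cyp7a1-labelled range lay inside the control range. On the log2 scale the ratio of the Cyp7a1-labelled SD to the control SD was 0.303 for Abcb11, 0.329 for Atp8b1 and 0.374 for Abcc2. Only 0.396%, 0.674% and 1.60% of all genes had a smaller ratio, in that order, while the median over all genes was 0.947. Abcb4, with a ratio of 0.703, stood nearer to the other genes, and 9 of the 10 transporters had a ratio under 1, against 54.9% of all genes.

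Control 20 and Control 25 were the 2 highest controls for Abcb11, Abcc2 and Atp8b1. They had 10207 and 9765 normalized counts of Abcb11, where the other 6 controls had 5446 to 7626. Without both, an omission chosen after seeing the data, the ratio was 0.566 for Abcb11, 0.549 for Atp8b1 and 0.444 for Abcc2, and 8.73%, 7.72% and 3.05% of all genes had a smaller one. The ratios of Abcb11 and Atp8b1 thus moved by over 1.5 times, while that of Abcc2 moved less. The difference in spread was chosen after its values were seen and was not tested.

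Basolateral export held both of the other called genes, in opposite directions. Abcc4 (chr14:118482692-118706219, minus strand), which exports bile acids together with glutathione and also cyclic nucleotides, had 134, 153 and 197 normalized counts at its lowest, median and highest in Cyp7a1-labelled livers, against 77.1, 102 and 129 in control livers. Every Cyp7a1-labelled liver lay above every control liver, a separation seen in either direction in 1.04% of all genes. The log2 fold change was 0.62 ± 0.11 (SE; limma adjusted p = 0.00378), and the exact permutation p of 0.000155 is the smallest that 12870 assignments can give. The values rest on 79 to 218 recovered reads per liver. The call held under all 25 alternatives, with a log2 fold change of 0.56 to 0.67 over the libraries left out.

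Abcc3 (chr11:94343295-94392997, minus strand), an exporter of glucuronides and bile acids, had 10029, 11407 and 12054 normalized counts at its lowest, median and highest in Cyp7a1-labelled livers, against 10819, 13259 and 14736 in control livers. All 8 Cyp7a1-labelled livers lay below the control mean and 3 below the lowest control, Control 35. The log2 fold change was -0.24 ± 0.07 (SE; limma adjusted p = 0.0404; exact permutation p = 0.00389). This call lay close to the threshold: it was lost under quantile normalization (adjusted p = 0.112), under scaling to equal totals (adjusted p = 0.0956), and without any of 10 single libraries, Cyp7a1 5, 17, 19, 28 and 36 and Control 7, 12, 13, 16 and 38, with limma adjusted p-values up to 0.0831. The log2 fold change itself stayed between -0.28 and -0.21 over the libraries left out.

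**Figure D2:**
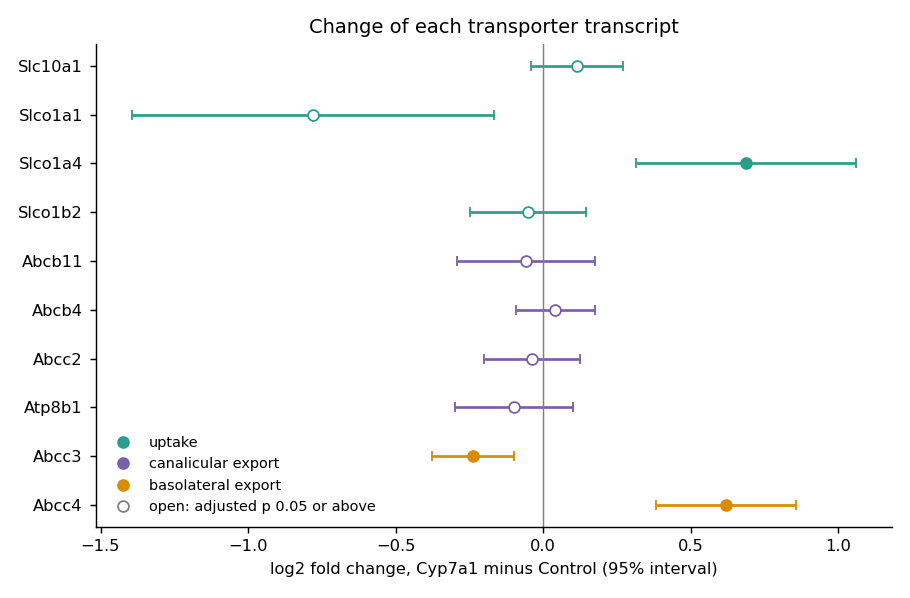
Log2 fold change of each transporter (x axis, Cyp7a1-labelled minus control, on the log2(normalized count + 1) scale) with its 95% interval from limma, n = 8 livers per group. Filled points passed the adjusted p threshold of 0.05, at 0.69 for Slco1a4, -0.24 for Abcc3 and 0.62 for Abcc4. Open points did not pass it, including Slco1a1 with the widest interval, from -1.39 to -0.17.

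Levels of different genes were compared after dividing normalized counts by exon length, which gives normalized counts per kb. This length counts every annotated exon of a gene, from 2.2 kb for Slc10a1 to 9.38 kb for Abcb4. Transcripts that use only some of these exons are shorter, which places their gene too low. The order of genes therefore depends in part on the annotation. On this scale the transporters spanned from 7518 ± 912 for Slc10a1 to 24.9 ± 3.36 for Abcc4 in Cyp7a1-labelled livers, and from 6916 ± 533 to 16.3 ± 3.0 for the same genes in control livers (SD, n = 8 each). The order from the top was Slc10a1, Slco1b2, Abcc3, Abcb11 and Abcc2 in both groups, and from the bottom Abcc4, Atp8b1 and Slco1a4. Places in the middle were exchanged: Abcb4 stood above Slco1a1 in Cyp7a1-labelled livers, at 798 ± 56.9 against 484 ± 214 per kb, and below it in control livers, at 777 ± 77.0 against 827 ± 310 per kb. Neighbours whose ranges overlapped were Abcb11 and Abcc2, and Abcb4 and Slco1a1, in Cyp7a1-labelled livers. In control livers Abcc3 and Abcb11, Abcb11 and Abcc2, Abcc2 and Slco1a1, Slco1a1 and Abcb4, and Slco1a4 and Atp8b1 overlapped.

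**Figure D3:**
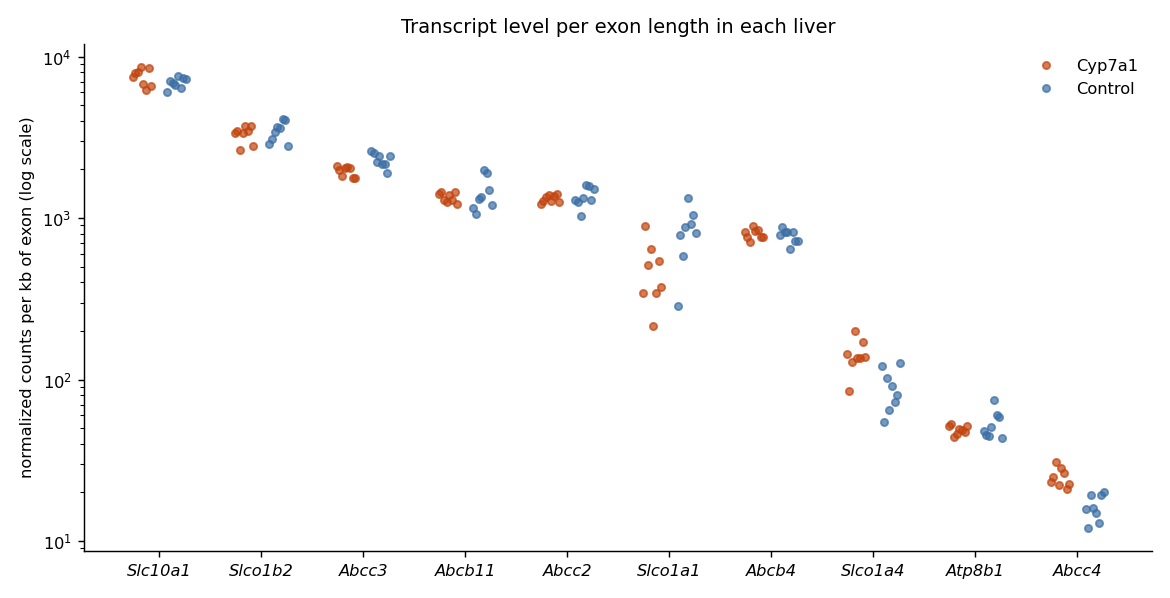
Normalized counts per kb of exon (y axis, log scale) for the 10 transporters in order of their control level, with Cyp7a1-labelled livers (orange) left of control livers (blue), 1 point per liver. Mean levels run from 7518 in Cyp7a1-labelled livers and 6916 in control livers for Slc10a1 down to 24.9 in Cyp7a1-labelled livers and 16.3 in control livers for Abcc4.

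Taken by their place in the cell, uptake carriers summed to a median of 11320 normalized counts per kb in Cyp7a1-labelled livers and 11148 in control livers. Canalicular exporters summed to a median of 3552 per kb in Cyp7a1-labelled livers and 3517 in control livers, and basolateral exporters to 2026 in Cyp7a1-labelled livers and 2345 in control livers. The median totals lay close together for uptake and canalicular export. Slc10a1 made up a median of 65.8% of the uptake sum (range 61.1% to 71.1%) in Cyp7a1-labelled livers and 61.4% (55.7% to 66.3%) in control livers. Slco1a1 made up 3.96% (1.98% to 7.24%) in Cyp7a1-labelled livers and 7.54% (3.03% to 10.5%) in control livers. Slco1a4 made up 1.30% (0.693% to 1.56%) in Cyp7a1-labelled livers and 0.682% (0.495% to 1.31%) in control livers. The ranges of all 3 shares overlapped between the groups, and the shares were not tested. Sums and shares depend on the exon lengths used, as the order of levels does. Abcc4 remained a small part of basolateral export, at 1.25% (range 1.08% to 1.66%) of the sum in Cyp7a1-labelled livers and 0.666% (0.475% to 1.0%) in control livers.

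Differences taken within a liver are nearly free of that library's scaling. The log2 difference of Abcc4 minus Abcc3 averaged -6.12 ± 0.20 in Cyp7a1-labelled livers and -6.98 ± 0.34 in control livers (SD, n = 8 each), 0.86 higher in Cyp7a1-labelled livers, with no overlap between the ranges. For Slco1a4 minus Slco1a1 it averaged -1.40 ± 0.79 in Cyp7a1-labelled livers and -2.87 ± 0.95 in control livers, 1.47 higher, and the ranges overlapped through Cyp7a1 5, at -3.10, and Control 7, at -0.93. For Abcb4 minus Abcb11, phospholipid flippase against bile salt pump, it averaged 0.11 ± 0.15 in Cyp7a1-labelled livers and 0.01 ± 0.42 in control livers, and the ranges overlapped. These balances are descriptions, since the genes were chosen with results known. Slco1a1 and Slco1a4 share 1.58% and 1.31% of their 50-base exon windows with each other, so few reads could be split between them.

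**Figure D4:**
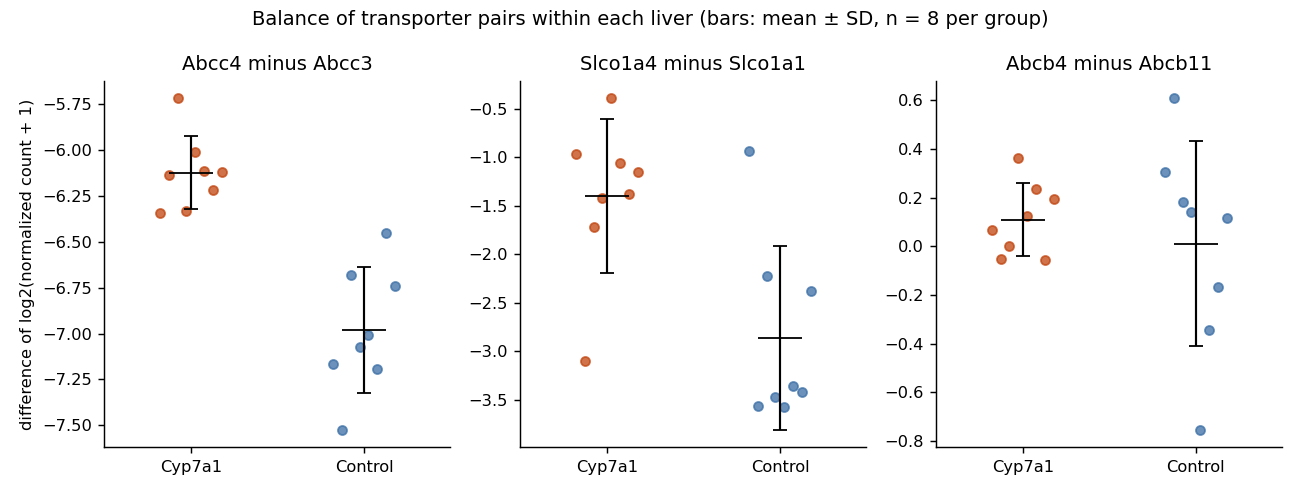
Difference of log2(normalized count + 1) between members of a pair within each liver (y axes), in Cyp7a1-labelled livers (orange) and control livers (blue), with mean and SD, n = 8 per group. The Abcc4 minus Abcc3 values of Cyp7a1-labelled livers, -6.34 to -5.71, all lie above those of control livers, -7.53 to -6.45, and the other pairs overlap.

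After the group means were removed, 45 pairs of transporters were compared over the 16 livers, with permutation p-values from 100000 shuffles within groups and Benjamini-Hochberg adjustment over the 45. By Spearman correlation 3 pairs had an adjusted p under 0.05, and by Pearson correlation Abcb11 and Atp8b1 alone, with r = 0.847 (permutation p = 0.00099, adjusted p = 0.0445) and Spearman rho = 0.800 (permutation p = 0.00184, adjusted p = 0.0486). All 3 Spearman pairs have this same adjusted p. These values lie so near 0.05 that another set of random shuffles could move them across it. Without Control 20 and Control 25, the livers farthest from the median of Abcb11, r was 0.693, and within groups it was 0.350 in Cyp7a1-labelled livers and 0.896 in control livers. The relation thus leaned on the control group, and the part of the narrower Cyp7a1-labelled range in this was not tested.

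Slc10a1 and Slco1a1, both uptake carriers, had r = 0.708 (permutation p = 0.0025, adjusted p = 0.0562) and rho = 0.735 (permutation p = 0.00324, adjusted p = 0.0486). Here r was 0.656 without Control 7 and Cyp7a1 26, the livers farthest from the median of Slc10a1, and it was much the same within groups, 0.705 in Cyp7a1-labelled livers and 0.767 in control livers. Slco1b2 and Abcb11 had r = 0.668 (permutation p = 0.00703, adjusted p = 0.105) and rho = 0.756 (permutation p = 0.00241, adjusted p = 0.0486). Their r was 0.706 without Control 38 and Cyp7a1 17, and 0.672 within Cyp7a1-labelled livers and 0.746 within control livers. The pair of called higher genes showed no such relation to Abcb11, with r = -0.107 for Slco1a4 (permutation p = 0.731, adjusted p = 0.803; rho = -0.288, permutation p = 0.315, adjusted p = 0.552) and -0.126 for Abcc4 (permutation p = 0.698, adjusted p = 0.793; rho = -0.0853, permutation p = 0.776, adjusted p = 0.870). Without Control 12 and Cyp7a1 5, r for Slco1a4 was -0.427, and without Control 20 and Control 25, r for Abcc4 was 0.261.

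**Figure D5:**
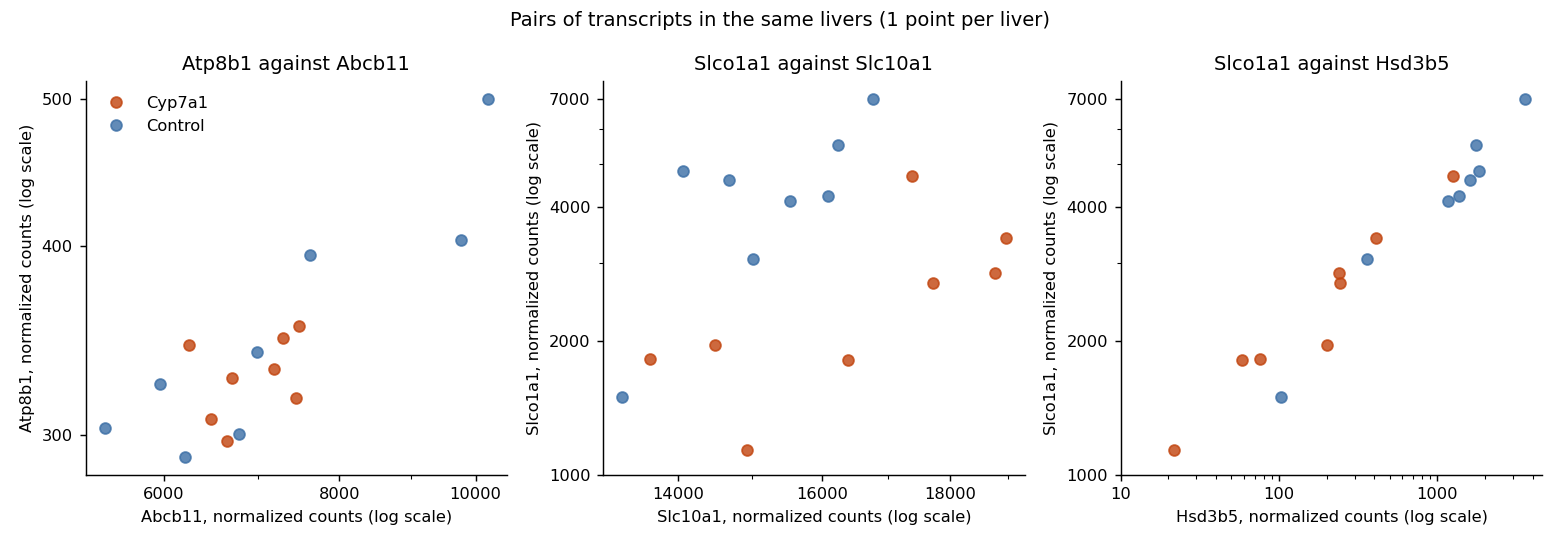
Normalized counts of gene pairs on log scales, 1 point per liver, in Cyp7a1-labelled livers (orange) and control livers (blue). Atp8b1 follows Abcb11 mainly through the high control livers (r = 0.896 within controls, 0.350 within Cyp7a1-labelled livers), Slco1a1 follows Slc10a1 at a lower level in most Cyp7a1-labelled livers, and Slco1a1 follows Hsd3b5 along 1 line through both groups.

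For each transporter the genes of the table with the most similar variation over the 16 livers, after removal of group means, were listed as a description with no p. Slco1a1 was closest to Hsd3b5, a male-predominant steroid-metabolising enzyme of mouse liver (r = 0.975), and to the major urinary protein genes Mup7 (r = 0.940) and Mup3 (r = 0.922), a family of near-identical copies whose reads may be split. Hsd3b5 had 21.7, 220 and 1250 normalized counts at its lowest, median and highest in Cyp7a1-labelled livers, against 102, 1489 and 3573 in control livers. Like Slco1a1 it was lower in most Cyp7a1-labelled livers without passing the test, at a log2 fold change of -2.59 and a limma adjusted p of 0.0506. Mup3 fell to 44099 ± 14816 normalized counts in Cyp7a1-labelled livers, against 91033 ± 36416 in control livers (SD, n = 8 each; log2 fold change -0.998, limma adjusted p = 0.0264). Mup7 was not called, at 6854 ± 5626 in Cyp7a1-labelled livers and 10129 ± 10344 in control livers (log2 fold change -0.48, limma adjusted p = 0.776).

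Abcb11 and Atp8b1 shared a neighbour, and the lists of Abcc2 and Abcb4 had no gene in common with them or each other. Aadac, which encodes arylacetamide deacetylase, was closest to Abcb11 (r = 0.925) and among the 3 closest to Atp8b1 (r = 0.901), beside Kynu, kynureninase (r = 0.924), and Cyp2j5 (r = 0.898) for Abcb11 and Sucnr1, the succinate receptor (r = 0.910), and Abhd18 (r = 0.900) for Atp8b1. Abcc2 was closest to Lclat1 (r = 0.914), Glud1, glutamate dehydrogenase (r = 0.907), and Cnn3 (r = 0.904), and Abcb4 to Ecm2 (r = 0.839), Cidea (r = 0.817) and Atp9b (r = 0.811). Values for the uptake and basolateral transporters other than Slco1a1 lay below 0.9. Slco1b2 was closest to Ranbp6 (r = 0.864), Tubgcp4 (r = 0.859) and Azin1 (r = 0.854), Abcc3 to Acbd4 (r = 0.865), Gnb2 (r = 0.854) and Fam160a2 (r = 0.846), and Slc10a1 to Tec (r = 0.842), Gramd1c (r = 0.838) and Gm6768 (r = 0.833). The genes called higher had the lowest values of likeness, with Slc25a32 (r = 0.799), Parp2 (r = 0.787) and Tma7 (r = 0.734) for Slco1a4, and Arhgef10 (r = 0.808), Sh2d3c (r = 0.800) and Phactr1 (r = 0.739) for Abcc4.

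Other genes of hepatobiliary transport were counted from lists, where over all genes 3.07% were called higher and 3.05% lower. At these shares, 1 called member in a list is no result about that list. Of 11 other exporters of sterols, phospholipids and drugs in the table, 2 were lower and 0 higher, with a median log2 fold change of -0.22, against 0.0034 over all genes. They encode the subunits of the canalicular sterol exporter. Abcg5 fell to 1952 ± 434 normalized counts in Cyp7a1-labelled livers, against 4811 ± 1603 in control livers, and Abcg8 to 2659 ± 551, against 6156 ± 2443 in control livers (SD, n = 8 each; log2 fold changes -1.26 and -1.14, limma adjusted p = 0.000463 and 0.00246). Of 14 other uptake carriers, 2 were lower and 0 higher, with a median of 0.0039. Among them was the anion carrier Slco2b1, at 5773 ± 456 in Cyp7a1-labelled livers and 6590 ± 446 in control livers (log2 fold change -0.19, limma adjusted p = 0.0486). The list also holds Slc10a2, known mainly from ileum and bile ducts, which was not called.

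Over all genes 3.07% were called higher and 3.05% were called lower. Among 19 partners, scaffolds and trafficking factors of canalicular transporters, 1 was lower and 0 higher, with a median of 0.0078. This was Slc9a3r1 (NHERF1), a scaffold under the apical membrane, at 3416 ± 395 normalized counts in Cyp7a1-labelled livers and 4485 ± 446 in control livers (log2 fold change -0.40, limma adjusted p = 0.00574). Tmem30a, the subunit that Atp8b1 needs to leave the endoplasmic reticulum, averaged 1569 ± 145 in Cyp7a1-labelled livers and 1464 ± 139 in control livers and was not called (limma adjusted p = 0.431). Of 11 genes that supply or remodel phosphatidylcholine, the lipid moved by Abcb4, 1 was higher and 1 lower, with a median of 0.07. Pcyt1a, the pace-setting enzyme of phosphatidylcholine synthesis from choline, averaged 3088 ± 293 in Cyp7a1-labelled livers and 2505 ± 120 in control livers (log2 fold change 0.30, limma adjusted p = 0.00448), and the phospholipase Pla2g6 averaged 1722 ± 281 in Cyp7a1-labelled livers and 2757 ± 374 in control livers (-0.69, limma adjusted p = 0.000652). For both, the groups did not overlap, as was seen in either direction in 1.04% of all genes.

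The share called lower over all genes was 3.05%. Of 21 nuclear receptors and factors known to act on these transporter genes, 1 was lower and 0 higher, with a median of -0.06. This was Nr0b2 (SHP), a repressor induced by the bile acid receptor FXR, which had 90.5, 133 and 269 normalized counts at its lowest, median and highest in Cyp7a1-labelled livers, against 359, 598 and 785 in control livers. The groups did not overlap, as held in either direction for 1.04% of all genes, and the log2 fold change was -1.95 ± 0.21 (SE; limma adjusted p = 4.25e-05). Abcb11, likewise known as a gene induced by FXR, had the log2 fold change of -0.06 given above, with an interval of -0.29 to 0.18. FXR activity was not measured, and its part in the values of Nr0b2 and Abcb11 was not tested. Nr1h4, which encodes FXR, averaged 4624 ± 490 in Cyp7a1-labelled livers and 4176 ± 361 in control livers and was not called (limma adjusted p = 0.236). Nr1i3 (CAR), a receptor known to raise Abcc4 in mice, averaged 10643 ± 1727 in Cyp7a1-labelled livers and 13472 ± 2337 in control livers and was not called either (log2 fold change -0.34, limma adjusted p = 0.0930).

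Slco1a1 is known to be male-predominant in mouse liver, and Slco1a4 and Abcc4 to be female-predominant. Of 16 male-predominant genes in the table, Slco1a1 among them, 1 was lower and 0 higher, with a median log2 fold change of -0.14 and 6 above 0. The gene called was Cyp2u1, at 410 ± 67.4 normalized counts in Cyp7a1-labelled livers and 645 ± 133 in control livers (log2 fold change -0.65, limma adjusted p = 0.0050), while Elovl3, at 2895 ± 924 in Cyp7a1-labelled livers and 2095 ± 347 in control livers, was not called (0.42, limma adjusted p = 0.124). Of 16 female-predominant genes, 7 were in the table, 3 were higher and 0 lower, with a median of 0.34 and 6 above 0. Over all genes 3.07% were called higher and 3.05% lower. The list was drawn up with results known and holds Abcc4 and Slco1a4, already called above, so its count is not a separate result. Besides Abcc4 and Slco1a4 the gene called was Cyp17a1, a steroid hydroxylase, at 1383 ± 688 in Cyp7a1-labelled livers and 342 ± 162 in control livers (log2 fold change 2.00, limma adjusted p = 0.00254). The labels give no sex, and the part of sex or of hormone signalling in these values was not tested.

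Abcc3 is also made by bile duct cells, and Abcb11 and the uptake carriers vary across the liver lobule, so markers of other cells and zones were counted beside them. Over all genes 3.07% were called higher and 3.05% lower, so 1 called marker is no result about its list. Of 12 cholangiocyte markers, 9 were in the table, 0 were higher and 1 was lower, Krt23, at 33.3 ± 16.6 normalized counts in Cyp7a1-labelled livers and 140 ± 47.8 in control livers (SD, n = 8 each; limma adjusted p = 0.000655). The defining markers Krt19, at 40.3 ± 21.0 in Cyp7a1-labelled livers and 37.6 ± 14.2 in control livers, and Krt7 and Epcam were not called, and the summed level of the list was 2419 to 5086 in Cyp7a1-labelled livers and 2175 to 4926 in control livers. Of 11 periportal markers 9 had a fold change above 0, with a median log2 fold change of 0.25 against 0.0034 over all genes, and 1 was called higher, Aldh1b1, with a summed level of 184802 to 340908 in Cyp7a1-labelled livers and 182661 to 260906 in control livers. Of 11 pericentral markers 6 had a fold change above 0, with a median of 0.08, and 1 was called higher, Rhbg, with a summed level of 278839 to 392658 in Cyp7a1-labelled livers and 253312 to 408016 in control livers. The 6 include Cyp7a1, the targeted gene itself, at a log2 fold change of 0.43, which cannot serve as a marker of zone here. None of the markers in the table was called for Kupffer cells and macrophages (17 markers), stellate cells and fibroblasts (13), sinusoidal endothelial cells (12), lymphocytes (3), neutrophils (1) or blood (5). Of 8 markers of kidney, intestine and pancreas, Cela1 alone was in the table, and it was lower, at 111 ± 14.0 in Cyp7a1-labelled livers and 152 ± 37.9 in control livers (limma adjusted p = 0.0482). The part of these cells in the transporter values was not tested.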

How the data were processed

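Messenger RNA was sequenced from 16 mouse livers. The values are the authors' normalized counts, a signal deposited for each gene in each library. The submitters' processing notes name mm10 as the build and list STAR 2.7.11a, Trim Galore 0.6.10, featureCounts, R 3.6.3 and DESeq2. They give no role for these tools. The annotation and strand setting are not given in the sources used, so reads of overlapping genes may be assigned to either. Values under 1000 were whole multiples of 1 read's worth (0.769 to 1.54 by library) in 100% of cases, at a tolerance of 0.05 reads, and the reads so recovered served the alternatives only.

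The main test was limma 3.58.1 (eBayes with trend, R 4.3.3) on log2(value + 1), two-sided and without covariates. P-values were adjusted by Benjamini-Hochberg over 12617 genes, and 0.05 was the threshold. Fold changes on this scale understate those of low genes. Single transporters were also compared by exact permutation of their mean log2 value over 12870 assignments. The minimum mean of 10 removed no gene, since the lowest gene mean was 13.3. One cell, for Ccne2 in Cyp7a1 2, held the text slc10a1, and Ccne2 was left out; Slc10a1 had its own complete row. Date-like symbols, 19 in all, were restored from gene IDs. Gene positions and exon lengths are those of GENCODE M21 (mm10), which matched 12594 IDs, and promoters are RefSeq's. The alternatives tried were edgeR 4.0.16 and DESeq2 1.42.0 on recovered reads, array weights, quantile normalization, equal totals, a minimum mean of 50 or none, a pseudocount of 8, and leaving out each library, or Control 38 with Cyp7a1 36. The steps were tested on simulated data.

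The transporters and gene lists were chosen with earlier results of these data known. By the rule for named genes, Cyp7a1, all 10 transporters, up to 4 called members of each list and the 3 genes most like each transporter were named. Marker lists without a called member are given as counts only. Tmem30a, Nr1h4, Nr1i3, Elovl3, Slc10a2, Krt19, Krt7 and Epcam fall outside the rule and were named for their known roles after their values had been seen. A called member of the list of uptake carriers is not reported here.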

Additional observations from a re-analysis of the deposited data

Results flagged for a closer look

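No transporter value, pair difference or depth stood apart from its group by the gap criterion for 8 libraries. Of 28 groups looked at, 0 had such a library, where about 1.4 would by chance. The criterion looks for 1 library apart, so 2 high libraries close together can hide each other. For Abcb11, Control 20 and Control 25 had 10207 and 9765 normalized counts, against 5446 to 7626 in the other controls. The result thus does not show that no liver was unusual.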

How the results depend on the processing

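The log2 fold changes of Slc10a1, Slco1b2, Abcb4, Abcc2, Atp8b1 and Abcc4 kept their direction and their side of the threshold under all 25 alternatives. Abcc3 lost its call under quantile normalization (-0.23, adjusted p = 0.112), equal totals (-0.25, adjusted p = 0.0956) and without Control 38 and Cyp7a1 36 together (-0.21, adjusted p = 0.119), which left 0 transporters lower, and for the last also 255 genes higher and 233 lower over all genes. Over the libraries left out singly, 1 to 2 transporters were higher and 0 to 1 lower, and over all genes 230 to 399 were higher and 245 to 414 lower, with the fewest without Cyp7a1 28 or Control 16. Log2 fold changes then ran from 0.59 to 0.79 for Slco1a4, -0.98 to -0.63 for Slco1a1, -0.28 to -0.21 for Abcc3 and -0.12 to 0.014 for Abcb11, whose sign turned without Control 20 (0.014) and without Control 25 (0.0051). On recovered reads edgeR called 760 genes (6.02%) and DESeq2 1121 (8.88%), against 772 by limma; both called Abcc4, Slco1a4 and Abcc3. The causes of these changes were not tested. No paired analysis was possible because the groups share no replicate numbers. Depth limits Abcc4 most, at 79 to 218 reads per liver.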
